A study of Mus musculus with 15 samples.

Results

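LSK cells from mice given AG221 and ruxolitinib together were compared gene by gene with wild-type (WT) LSK cells, to ask what combined therapy left away from the WT level and what it carried beyond that level. The genes described are those whose raw counts differed between the 3 combined therapy libraries and the 3 WT libraries, among the genes that passed a low-count filter and lie outside chromosomes X and Y. They numbered 540 of 17143 genes tested, and the count table lists 45232 gene IDs. Of these 540 genes, 274 were higher and 266 were lower with combined therapy than in WT.

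LSK cells lack lineage markers and carry Sca-1 and c-Kit, and within the bone marrow they include the hematopoietic stem cells and the earliest multipotent progenitors. The series holds 15 libraries in 5 groups of 3, and all cells were sorted CD45.2+ LSK cells of the C57BL/6 strain (C57BL/6J in the study's methods). In the vehicle, AG221, ruxolitinib and combined groups the cells carried conditional Jak2 V617F and Idh2 R140Q alleles, recombined by Mx1-Cre after injection of polyI:polyC, and had been transplanted together with CD45.1 competitor cells into lethally irradiated CD45.1 hosts. These mice were gavaged BID for 21 to 28 days with vehicle, 40 mg/kg of AG221, 60 mg/kg of ruxolitinib or both, with the last dose about 1.5 hours before they were killed. The labels give 40 mg/kg of AG221, whereas the study's methods allow more than 1 dose of it. The WT group is labelled only as wild type, and neither the labels nor the methods say whether its cells had passed through a transplant or its mice had been gavaged. The labels give no ages, and the study's methods give only a range from adult to aged mice of both sexes for its experiments as a whole. A library may stand for 1 mouse or for pooled cells, so p-values measure only the spread between these libraries.

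JAK2 is the kinase that passes signals from cytokine receptors, among them the erythropoietin and thrombopoietin receptors, to STAT transcription factors. The V617F form signals without cytokine and drives overproduction of red cells and platelets, and the R140Q form of IDH2, a mitochondrial enzyme, makes an oncometabolite that blocks dioxygenases acting on DNA and histones. Ruxolitinib inhibits JAK1 and JAK2, and AG221 inhibits mutant IDH2. JAK1 also serves the receptors of type I interferon, whose signal reaches the genes called interferon-stimulated through a complex of STAT proteins and IRF9.

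Total counts ran from 18836625 to 29580486 in the combined libraries (B24, B25 and B26) and from 24310100 to 26408209 in the WT libraries (B28, B30 and B31). A total of 3 counts, the most that a count of 0 allows, corresponds to 0.101 to 0.157 CPM (counts scaled to the TMM-adjusted library total) in these 6 libraries, and this limit covers counting error only, because reads without molecular identifiers are not independent molecules. Combined and WT libraries carry the letter B in their replicate names and the other 9 libraries the letter A, whose meaning the labels do not give. Every comparison of WT or combined therapy with vehicle, AG221 or ruxolitinib therefore also crosses the letters, and letter and group cannot be told apart there. The sex of the cells differed too: Xist, the RNA that silences an X chromosome, was at 455 to 511 CPM in WT and at 0.365 to 3.49 CPM with combined therapy, while the Y-linked Ddx3y was at 124 to 140 CPM with combined therapy and reached at most 3 counts in a WT library. Sex of the donor cells and treatment cannot be told apart in any difference from WT given here. The LSK gate markers were present in both groups, with 7 of 7 tested, none called, and a summed level of 2325 to 3288 CPM with combined therapy and 3506 to 3745 CPM in WT.

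Most genes that separated combined therapy from WT also separated vehicle from WT in the same direction. All 15 libraries were fitted together with edgeR's quasi-likelihood test, and a gene was called at a Benjamini-Hochberg adjusted p under 0.05. Called genes were 3.15% of those tested, 1.6% higher and 1.55% lower, and 4319 genes had an unadjusted p under 0.05. At least 2-fold differences were found in 367 of the 540. The libraries of the 2 groups did not overlap for 532 of the 540 called genes, where 41.4% of all tested genes show no overlap. Called genes just inside the threshold were Naalad2, 3300002I08Rik and Cux2 (edgeR adjusted p = 0.0496, 0.0497 and 0.0499), and Mmrn2, Nap1l1 and Atp5mpl lay just outside it (edgeR adjusted p = 0.0501, 0.0501 and 0.0502).

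Classes follow from reading each called gene in vehicle against WT as well, where 15.3% of tested genes were called higher and 17.8% lower. The adjusted threshold demands a smaller unadjusted p with combined therapy, where 3.15% of genes were called, than with vehicle. Counts of calls in the 2 comparisons, here and in the gene lists below, are therefore not on equal terms. In the first class, 404 genes (74.8% of those called) were called in the same direction in both comparisons and so were not brought to the WT level. In the second, 11 genes (2.04%) were called in opposite directions and so were taken past WT. The remaining 125 genes (23.1%) differed from WT with combined therapy and were not called in vehicle. Both comparisons use the same WT libraries, so that these counts are a description. Conversely, of 5681 genes called in vehicle against WT, 5266 were not called in combined therapy against WT, which does not show that they returned to the WT level.

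Size as well as number separated these classes. Genes not brought to WT and higher (194) had a median log2 fold change against WT of 0.88 with combined therapy and 0.99 with vehicle, and 15 of them were called lower with combined therapy than with vehicle. In the comparison of combined therapy with vehicle, 8.48% of all tested genes were called higher and 4.19% lower. Genes not brought to WT and lower (210) had medians of -2.94 with combined therapy and -3.29 with vehicle, 9 of them were called higher than in vehicle, and 6 were called lower still. These 210 genes were mostly of low abundance, with a median level of 0.418 CPM with combined therapy against 4.63 CPM in WT. Of the 125 genes that differed with combined therapy only, 72 were higher (median 0.99) and 53 were lower (median -1.54), and 59 and 25 of them, respectively, were also called in the same direction against vehicle. The median log2 fold change over all tested genes was 0.04. With upper quartile factors it was -0.16 and 91 genes were called higher and 474 lower, so that 16.1% of called genes were higher in place of 50.7%, and the balance of directions depends on the scaling.

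**Figure D1:**
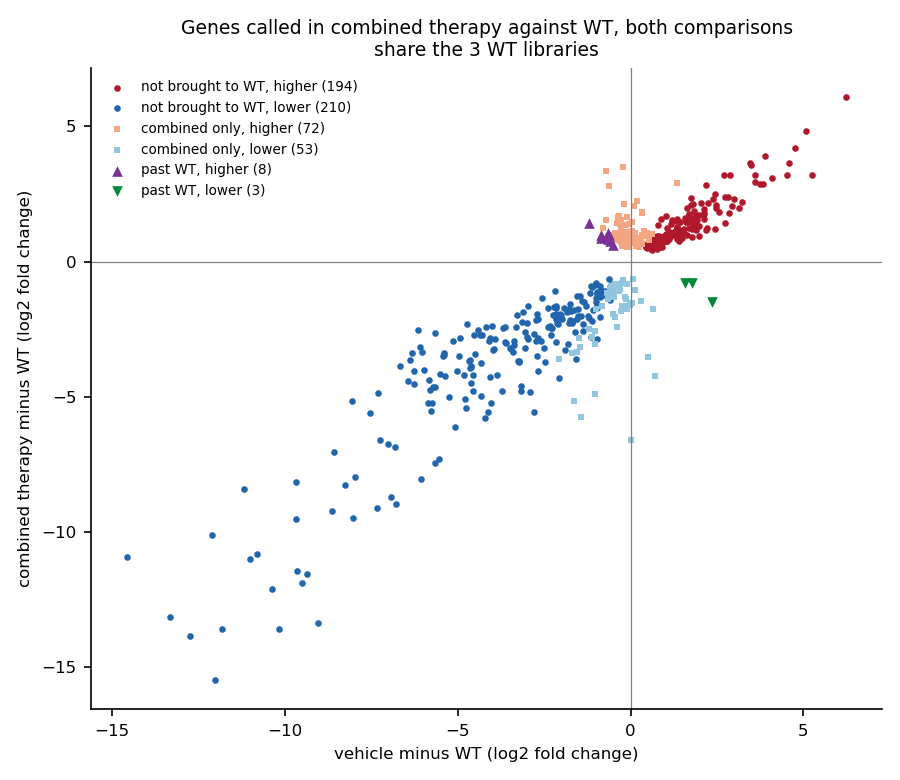
Log2 fold change against WT of the 540 called genes, with vehicle on the horizontal axis and combined therapy on the vertical axis, each point a gene and each color a class. The 404 genes not brought to WT lie in the lower left and upper right, the 11 genes past WT lie in the upper left and lower right, and both axes use the same WT libraries.

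Among the named genes that stayed above WT were chemokine receptors of monocytes and markers of mast cells and basophils. Ccr1 (ENSMUSG00000025804), a receptor for inflammatory chemokines on chromosome 9, 123962124 to 123968692 of GRCm38 (minus strand), was at 28.9, 24.9 and 58.7 CPM with combined therapy, at 1.52, 2.83 and 1.78 CPM in WT and at 46.5, 55.6 and 64.5 CPM with vehicle. Every combined library was therefore far above every WT library, and only B26 reached the range of vehicle. The difference from WT was 4.19 ± 0.35 on the log2 scale (SE, n = 3 per group; edgeR adjusted p = 5.57e-05), against 4.76 with vehicle, 5.29 with AG221 and 4.63 with ruxolitinib. Ccr2, the monocyte chemokine receptor next to it at 124101950 to 124113557, was at 238.4, 186.3 and 482.6 CPM with combined therapy and at 37.2, 30.4 and 32.1 CPM in WT, a log2 difference of 3.19 ± 0.39 (edgeR adjusted p = 0.00128). Again no combined library came near WT, and the combined range overlapped that of vehicle (246.4 to 540.8 CPM).

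Cpa3, the carboxypeptidase of mast cell granules (chromosome 3, 20215620 to 20242181), was at 146.6, 180.6 and 201.3 CPM with combined therapy and at 49.4, 30.5 and 48.4 CPM in WT. Vehicle libraries held 305.5, 232.7 and 443.9 CPM, so that combined therapy lay between WT and vehicle without touching either. It differed from WT by 2.04 ± 0.26 (edgeR adjusted p = 0.0016) and from vehicle by -0.89 (edgeR adjusted p = 0.031). Fcer1a, the IgE-binding chain of the high-affinity receptor (chromosome 1, 173221284 to 173227214), followed the same order, with 25.1, 39.0 and 49.2 CPM with combined therapy, 4.94, 3.34 and 3.99 CPM in WT and 63.1, 49.3 and 168.0 CPM with vehicle. The highest combined library fell just short of the lowest vehicle library. Its log2 difference was 3.21 ± 0.42 from WT (edgeR adjusted p = 0.00204) and -1.31 from vehicle (edgeR adjusted p = 0.0381).

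Both genes hold AGATAA, the motif bound by GATA factors, close to their starts. The stretches printed here are from RefSeq (GRCm38.p6) and are shown because these are the mast cell and basophil genes called below vehicle and above WT, and capitals mark the match, and TTATCT is the same motif read on the other strand.
Cpa3, chr3:20242162-20242301, minus strand: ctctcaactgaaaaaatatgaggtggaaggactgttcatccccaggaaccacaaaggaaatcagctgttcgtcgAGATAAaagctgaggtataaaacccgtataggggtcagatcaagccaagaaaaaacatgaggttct
Fcer1a, chr1:173227210-173227349, minus strand: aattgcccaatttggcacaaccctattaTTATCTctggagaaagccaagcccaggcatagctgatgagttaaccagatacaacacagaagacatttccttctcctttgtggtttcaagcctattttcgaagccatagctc
Promoter windows of 300 bases (250 before to 50 after the start) were searched on both strands. AGATAA was present for 3 of the 6 megakaryocyte and mast or basophil markers called higher (Cpa3, Fcer1a and Pf4), for 3 of 8 such markers not called, and for 12.7% of 27025 genes. A match describes the letters in the window only.

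Of 9 mast cell and basophil markers tested, 3 were called higher than WT with combined therapy (Cpa3, Fcer1a and Gzmb, the granzyme B gene) and 8 with vehicle, with median log2 differences of 1.36 and 2.94. Genes called higher made up 1.6% of all tested genes with combined therapy and 15.3% with vehicle. With combined therapy, 1 of the 9 fold changes was negative. The summed level of the 9 markers was 307 to 522 CPM with combined therapy, 110 to 196 CPM in WT and 697 to 1198 CPM with vehicle, so that the 3 groups did not overlap. In bulk libraries a larger share of such cells and more RNA per cell cannot be told apart. Of 10 neutrophil markers, 1 was called higher (Ctsg, cathepsin G, 1.23, edgeR adjusted p = 0.0221) and 3 fold changes were negative, with a median of 0.69. Of 8 monocyte and dendritic cell markers, Ccr2 alone was called and 2 fold changes were negative, with a median of 0.45 that was -0.03 without B26. Called higher as well were Il1b, the gene of interleukin-1 beta (2.87, edgeR adjusted p = 0.0144), and, named after their values were seen, Alox5, the enzyme that opens leukotriene synthesis (1.78, edgeR adjusted p = 0.0144), Siglecf, a lectin of eosinophils (1.31, edgeR adjusted p = 0.028), and Ccl2, a chemokine that CCR2 binds (3.66, edgeR adjusted p = 0.0352). Nkg7, a gene of cytotoxic granules that myeloid progenitors also express, rose by 1.14 ± 0.15 (edgeR adjusted p = 0.00233), and it was the sole call among 7 T and NK markers, of which the other 6 had negative fold changes (list median -1.77). Cap1, which turns over actin filaments, rose by 1.19 and stood below vehicle by 0.59 (edgeR adjusted p = 0.00204 and 0.0222), and Tuba8, an alpha-tubulin gene, rose by 1.52 (edgeR adjusted p = 0.00447), with 16.3% of its exon sequence under a gene on the other strand. Without any 1 of B25, B28 or B30, the calls of Gzmb, Il1b, Siglecf and Alox5 were lost (edgeR adjusted p up to 0.105), Ctsg was lost without B28 or B30 (up to 0.0894), Gzmb and Siglecf also without B26 (up to 0.0679) and Gzmb without B31 (0.0528), while Ccl2 was lost without any 1 of B25, B26, B28, B30 or B31 (0.0716 to 0.114). Those of Ccr1, Ccr2, Cpa3, Fcer1a, Nkg7, Cap1 and Tuba8 held without any of the 6 libraries.

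Of 8 megakaryocyte markers tested, 3 were called higher with combined therapy (Itga2b, Pf4 and Gp1bb) and 4 with vehicle (medians 0.71 and 0.91). Over all tested genes, 1.6% were called higher with combined therapy and 15.3% with vehicle. With combined therapy, 2 of the 8 fold changes were negative. DESeq2 and a fit of the 6 combined and WT libraries each called 1 of these markers lower. The summed level of the 8 markers overlapped between combined therapy and WT, at 638 to 1258 CPM and 628 to 797 CPM. Selp, the gene of P-selectin (chromosome 1, 164115264 to 164150026), was at 127, 141 and 160.0 CPM with combined therapy and at 37.1, 32.7 and 41.4 CPM in WT, a log2 difference of 1.94 ± 0.22 (edgeR adjusted p = 0.000821). The groups were far apart, and 14.1% of its exon sequence lies under a gene on the other strand, whose reads cannot be told apart because the strand setting of the counting is not given in the sources used here. Itga2b, the platelet integrin chain CD41, was at 449.6, 587 and 336 CPM against 182, 137 and 151 CPM in WT (1.54 ± 0.28, edgeR adjusted p = 0.0144). Pf4, platelet factor 4, was at 143, 215 and 82.5 CPM against 56.8, 44.6 and 57.6 CPM (1.47 ± 0.28, edgeR adjusted p = 0.0162). In both, B26 was the lowest and B25 the highest combined library, and all 3 stayed above WT. Among genes outside that list and named after their values were seen, the thrombin receptor gene F2r (1.56), its relative F2rl2 (1.44) and Gp1ba, part of the von Willebrand factor receptor (1.58), were also called higher in both combined therapy and vehicle (edgeR adjusted p = 0.0256, 0.0103 and 0.0121 against WT with combined therapy). The erythroid and megakaryocytic factor gene Gata2 was not called (0.92 ± 0.42, edgeR adjusted p = 0.187), and Gata1, on the X chromosome and so outside the genes counted, was at 108, 204 and 103 CPM against 40.2, 32.7 and 36.1 CPM in WT (1.93 ± 0.38, edgeR adjusted p = 0.0193 over all chromosomes).

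For 3 further platelet receptor genes, combined therapy was called higher than WT and vehicle was not, and combined therapy was also called higher than vehicle. Gp5, another part of the von Willebrand factor receptor, was at 38.9, 55.0 and 7.31 CPM with combined therapy, at 4.94, 6.74 and 2.95 CPM in WT and at 2.37, 3.19 and 3.83 CPM with vehicle (2.79 ± 0.62 against WT and 3.43 against vehicle, edgeR adjusted p = 0.0343 and 0.0047). B24 and B25 were far above WT, and B26 was only slightly above its highest library. Gp1bb rose by 3.34 against WT and by 4.05 against vehicle (edgeR adjusted p = 0.0431 and 0.00776), but B26 at 0.694 CPM lay within the WT range of 0.201 to 1.08 CPM, and 92.9% of its exon sequence lies under another gene on the same strand, so that its value is uncertain. P2ry1, an ADP receptor of platelets, rose by 1.81 against WT and by 1.49 against vehicle (edgeR adjusted p = 0.0286 and 0.0215), with 23.1% of its exon sequence under a gene on the other strand. Against WT, AG221 and ruxolitinib alone stood at -1.52 and -0.66 for Gp5, at -0.88 and -0.60 for Gp1bb and at -0.19 and 0.01 for P2ry1. Without B25 or without B30 none of the 3 calls among the megakaryocyte markers was left, and 1 was without B28. Without B25, the edgeR adjusted p of Itga2b became 0.0711, that of Pf4 0.0707, that of Gp1ba 0.0557, that of F2rl2 0.0555, that of F2r 0.123, that of Gp5 0.143, that of Gp1bb 0.165 and that of P2ry1 0.131. Each of these calls was also lost without B30 (edgeR adjusted p = 0.0506 to 0.0988), those of Pf4, F2r, Gp5, Gp1bb and P2ry1 without B28 (0.0597 to 0.135), those of F2r, Gp5, Gp1bb and P2ry1 without B31 (0.0584 to 0.087), and those of Gp5 and Gp1bb without B24 (0.0563 and 0.0715), while Selp held throughout.

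Some genes of cell division were called above WT. Of 45 genes of DNA replication and mitosis, 10 were called higher and none lower with combined therapy, and 32 were called higher with vehicle. The shares of all tested genes called higher were 1.6% with combined therapy and 15.3% with vehicle, at unlike cuts of the unadjusted p. All 45 fold changes with combined therapy were positive (median 0.58, against 0.64 with vehicle and 0.04 over all genes). Aurkb, the kinase of chromosome alignment and cytokinesis (chromosome 11, 69045647 to 69051664), was at 218, 262 and 265 CPM with combined therapy, at 149, 119 and 149 CPM in WT and at 273, 233 and 251 CPM with vehicle. Combined therapy lay within the vehicle range or just under it, and above WT in all 3 libraries (0.84 ± 0.15, edgeR adjusted p = 0.0144). Plk1, a kinase of mitotic entry, rose by 0.95 (edgeR adjusted p = 0.0352), E2f8, a repressor of E2F targets, by 1.01 (edgeR adjusted p = 0.0162) and Cdk6, the kinase of early G1, by 0.61 (edgeR adjusted p = 0.0381). Ccne1, the cyclin that opens S phase, was called with combined therapy and not with vehicle, at 35.3, 52.6 and 19.1 CPM with combined therapy, 9.36, 15.5 and 10.1 CPM in WT and 6.43, 8.17 and 12.9 CPM with vehicle (1.61, edgeR adjusted p = 0.0352). Mki67, the proliferation marker Ki-67, was likewise called with combined therapy alone (0.58, edgeR adjusted p = 0.0473), as was E2f1 (1.11, edgeR adjusted p = 0.0363). The count of 10 rested on the scaling and on single libraries: it was 5 with RLE factors, 2 with upper quartile factors (median 0.37), 0 without B25 or without B30, 1 without B28, 2 without B26, 4 without B31 and 7 without B24, but 14 with GC content offsets, 17 with DESeq2 and 18 in a fit of the 6 combined and WT libraries. Each gene named here lost its call without B25 (edgeR adjusted p from 0.071 for Aurkb to 0.172 for Mki67) and without B30 (from 0.0639 for Ccne1 to 0.17 for Mki67), and all but Aurkb also lost it without B28 (0.0597 for E2f8 to 0.124 for Ccne1). Plk1, Cdk6, Mki67, Ccne1 and E2f1 lost it in further such fits, without B31 (up to 0.0786) and either without B26 (0.0625 to 0.126 for Plk1, Cdk6 and Mki67) or without B24 (0.0545 and 0.0664 for Ccne1 and E2f1).

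Few genes of mitochondrial energy production were called. Of 40 nuclear genes of respiratory complexes II to V, 4 were called higher, among them Atp5a1, a subunit of the ATP synthase (0.63, edgeR adjusted p = 0.0281), and 24 were called higher with vehicle. All 40 fold changes were positive, with a median of 0.59 with combined therapy and 0.53 with vehicle. For complex I, 2 of 35 genes were called higher, among them Ndufa11 (0.72, edgeR adjusted p = 0.0293), against 14 with vehicle. For the tricarboxylic acid cycle, 2 of 27 were called, among them Mdh2, malate dehydrogenase of mitochondria (0.69, edgeR adjusted p = 0.0414), against 16 with vehicle. None of 12 mitochondrially encoded genes was called (median 0.14). Proteasome genes showed 1 call of 35 with combined therapy and 33 with vehicle, at medians of 0.49 and 0.61. Over all tested genes, 1.6% were called higher with combined therapy and 15.3% with vehicle, at unlike cuts of the unadjusted p. Sdhb of complex II, for example, differed from WT by 0.52 ± 0.17 with combined therapy and was not called (edgeR adjusted p = 0.0875). With vehicle it differed by 0.50 ± 0.17 and was called (edgeR adjusted p = 0.0363). The 4 calls for complexes II to V fell to 2 with RLE factors or without B24, to 0 with upper quartile factors and without B25, B26, B28 or B30, and rose to 15 without B31, 8 with GC content offsets, 6 in a fit of the 6 combined and WT libraries and 18 with DESeq2. Atp5a1, Ndufa11 and Mdh2 lost their calls without B25, B26, B28 or B30 (edgeR adjusted p up to 0.129, 0.131 and 0.166).

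**Figure D2:**
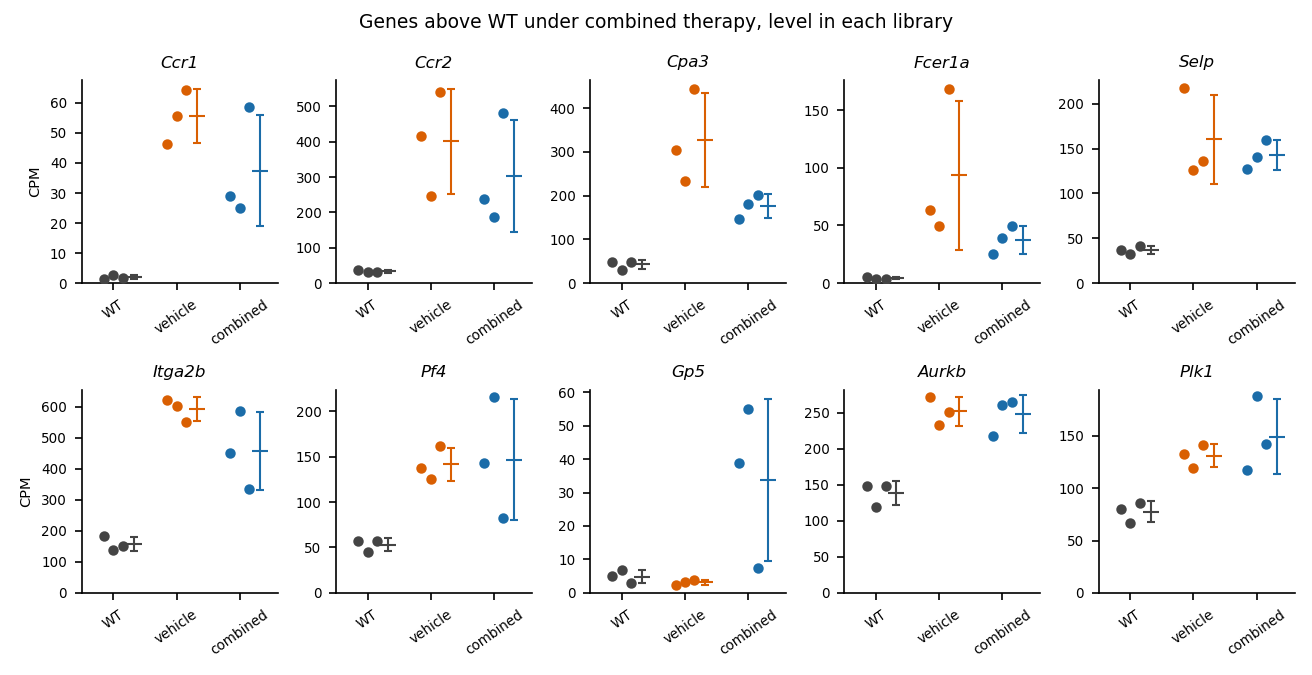
Level per library in CPM, on linear axes from 0, of genes called higher with combined therapy than in WT, with each point a library of the WT, vehicle or combined group and bars for the mean and SD of each group. The combined libraries of Ccr1 lie at 24.9 to 58.7 CPM and the WT libraries at 1.52 to 2.83 CPM.

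Interferon-stimulated genes were 1 of the lists with calls below WT. Of 35 tested, 19 were called lower with combined therapy and none higher, against 1.55% of all tested genes called lower, and 34 of 35 fold changes were negative. Vehicle had 9 of the 35 called lower than WT, against 17.8% of all tested genes. Of the 19 genes, 7 were called in both comparisons and the other 12 with combined therapy only. The median log2 difference from WT was -1.35 with combined therapy, -0.21 with vehicle, -0.64 with AG221 and -1.19 with ruxolitinib, all against the same WT libraries. Against vehicle, 20 of the 35 were called lower with combined therapy, where 4.19% of all tested genes were. The summed level of the 35 genes was 802 to 892 CPM with combined therapy, 1532 to 1562 CPM in WT and 1046 to 1617 CPM with vehicle.

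Rtp4, an interferon-induced chaperone of receptors (ENSMUSG00000033355, chromosome 16, 23520291 to 23614222), was at 8.14, 7.91 and 6.71 CPM with combined therapy, at 44.9, 55.4 and 63.9 CPM in WT and at 45.34, 21.95 and 17.21 CPM with vehicle. Combined therapy was below every library of both other groups. The difference from WT was -2.85 ± 0.32 (edgeR adjusted p = 0.000696), and that from vehicle -1.89 (edgeR adjusted p = 0.00275), while AG221 and ruxolitinib alone differed from WT by -1.34 and -3.27. Irf7, the transcription factor that amplifies the interferon response (chromosome 7, 141262706 to 141266481), was at 10.6, 8.33 and 9.02 CPM with combined therapy, at 32.3, 36.5 and 38.8 CPM in WT and at 34.4, 19.9 and 20.9 CPM with vehicle. Here too the combined libraries lay under both other groups (-1.94 ± 0.23 against WT, edgeR adjusted p = 0.00114). Vehicle was not called against WT for this gene (-0.52, edgeR adjusted p = 0.0875), and ruxolitinib alone stood at -2.36.

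Further called members of the list include genes of antiviral effectors. Oas3, which makes the activator of RNase L, was at 7.25, 6.12 and 7.17 CPM with combined therapy and at 25.11, 22.14 and 24.95 CPM in WT (-1.81 ± 0.28, edgeR adjusted p = 0.00585). Rsad2, the gene of viperin, was at 6.31, 7.15 and 6.38 CPM against 27.6, 28.5 and 26.2 CPM (-2.05 ± 0.32, edgeR adjusted p = 0.0062). Isg15, a ubiquitin-like modifier, was at 1.41, 2.14 and 2.31 CPM against 5.62, 5.83 and 8.18 CPM (-1.74 ± 0.34, edgeR adjusted p = 0.02). None of the 3 genes overlapped between combined therapy and WT. Ifi44 fell by 3.05, Mx1, a gene of the interferon-induced GTPases, by 3.61, Ifit3 by 2.61 and Dhx58, a regulator of RNA sensing, by 1.44 on the log2 scale (edgeR adjusted p = 0.00233, 0.00326, 0.00356 and 0.00344). Irf9, the DNA-binding part of the interferon-activated STAT complex, fell by 0.85 (edgeR adjusted p = 0.031) and differed from vehicle by -0.75 (edgeR adjusted p = 0.017). The Oas, Ifit and Mx families hold close paralogs, whose reads the counting could have split between copies.

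A pair of GAAA runs separated by any 2 bases, a common form of the interferon-stimulated response element, was searched in the same 300-base windows on both strands. It was found for 6 of the 12 called members that have a promoter in the RefSeq table, for 9 of 13 members that were not called and for 3.99% of 27025 genes, and the windows of Irf7 and Ifi44 held no match. The stretches of 200 bases are shown for 4 called members to place the element beside their levels. Capitals mark matches on either strand (a pair of TTTC runs is the same motif read on the other strand), and in Isg15 overlapping matches form 1 run.
Ifit3, chr19:34583349-34583548, plus strand: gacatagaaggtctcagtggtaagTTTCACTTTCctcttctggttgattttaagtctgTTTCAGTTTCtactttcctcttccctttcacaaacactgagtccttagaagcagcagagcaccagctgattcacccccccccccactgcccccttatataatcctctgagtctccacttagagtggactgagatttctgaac
Rsad2, chr12:26456433-26456632, minus strand: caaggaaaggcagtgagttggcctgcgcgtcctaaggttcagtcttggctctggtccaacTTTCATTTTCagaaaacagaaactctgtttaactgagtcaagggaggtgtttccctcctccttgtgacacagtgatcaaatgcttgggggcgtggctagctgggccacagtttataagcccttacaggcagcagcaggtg
Oas3, chr5:120777640-120777839, minus strand: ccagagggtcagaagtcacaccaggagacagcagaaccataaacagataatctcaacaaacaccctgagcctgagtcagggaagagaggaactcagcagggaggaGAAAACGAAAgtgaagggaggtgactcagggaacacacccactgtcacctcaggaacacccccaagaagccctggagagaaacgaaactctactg
Isg15, chr4:156200799-156200998, minus strand: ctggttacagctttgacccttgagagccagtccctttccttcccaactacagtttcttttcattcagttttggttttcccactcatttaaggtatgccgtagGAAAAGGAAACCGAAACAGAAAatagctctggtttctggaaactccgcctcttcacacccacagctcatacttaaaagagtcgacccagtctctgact

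Of 24 interferon-gamma induced GTPases and related genes, 3 fell with combined therapy, all guanylate-binding proteins of 1 cluster on chromosome 5 (Gbp6, Gbp9 and Gbp11, by 3.38, 3.60 and 3.86 on the log2 scale, edgeR adjusted p = 0.0241, 0.0399 and 0.0384), and 11 were called higher with vehicle. Among all tested genes, 1.55% were called lower with combined therapy and 15.3% higher with vehicle. The list medians were -0.56 with combined therapy and 0.50 with vehicle, and 6 of the 24 fold changes with combined therapy were positive. The summed level of the 24 genes was 2274 to 2972 CPM with combined therapy and overlapped that of WT (2172 to 2536 CPM). With vehicle it was 4222 to 5830 CPM. Gbp6, Gbp9 and Gbp11 lost their calls without B25, B26, B28 or B30 (edgeR adjusted p up to 0.129, 0.167 and 0.18), Gbp9 and Gbp11 without B31 (up to 0.0647), and Gbp11 also without B24 (0.0674). The 19 interferon-stimulated calls became 8 without B25, 12 without B30, 13 without B28 and 15 to 16 without any other of the 6 libraries, whereas RLE factors gave 19, GC content offsets 20, upper quartile factors 22, DESeq2 26 and a fit of the 6 libraries alone 31. In the fits without 1 library, Isg15 and Irf9 lost their calls without B24, B25, B28, B30 or B31 (edgeR adjusted p up to 0.0908 and 0.154). Rtp4, Irf7, Oas3, Rsad2, Ifi44, Mx1, Ifit3 and Dhx58 held in all of those fits.

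Immunoglobulin and plasma cell genes made up another part of what stayed below WT. Over all tested genes, 1.55% were called lower with combined therapy and 17.8% with vehicle, at unlike cuts of the unadjusted p. Of 104 immunoglobulin and T cell receptor segments tested, 32 were called lower and 1 higher with combined therapy, and 63 were called lower with vehicle. Their summed level was 350 to 816 CPM with combined therapy, 153 to 352 CPM with vehicle and 8022, 20130 and 5682 CPM in the WT libraries B28, B30 and B31. Of 9 plasma cell markers, 6 were called lower with combined therapy and 8 with vehicle, with medians of -3.37 and -4.34 and summed levels of 162 to 212 CPM with combined therapy, 618 to 1356 CPM in WT and 68.7 to 159 CPM with vehicle. Both lists were thus highest in WT, where the sorted LSK gate should hold no plasma cells, and the part of such cells in other genes lower than WT was not tested.

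Irf4, the transcription factor of plasma cell fate (chromosome 13, 30749226 to 30766976), was at 0.209, 0.311 and 0.278 CPM with combined therapy and at 7.11, 23.5 and 4.86 CPM in WT (-5.43 ± 0.71, edgeR adjusted p = 0.00211). Sdc1, the plasma cell surface protein CD138, was at 7.41, 4.70 and 5.78 CPM with combined therapy, at 50.2, 57.4 and 27.8 CPM in WT and at 1.73, 2.17 and 3.95 CPM with vehicle (-2.92 ± 0.50, edgeR adjusted p = 0.0111). Combined therapy lay between vehicle and WT for Sdc1, but was not called against vehicle (1.19, edgeR adjusted p = 0.133). Pou2af1, a B-lineage coactivator, and Mzb1, a chaperone of antibody secretion, fell by 3.73 and 3.67 on the log2 scale (edgeR adjusted p = 0.0186 and 0.0338). Jchain, which links antibody polymers, missed the threshold (-4.36, edgeR adjusted p = 0.0634). In 12 of the 210 genes that stayed below WT, 9 of them immunoglobulin segments, no combined library had a count. Setting combined therapy at the level of 3 counts in a single library, averaged over the combined libraries, bounds these differences at 5.83- to 1683-fold at least. The 6 plasma calls became 1 without B25, 2 without B26, B28 or B30 and 4 without B24. Sdc1 was lost without B25 (edgeR adjusted p = 0.0711), Pou2af1 without B25, B26, B28 or B30 (up to 0.0796) and Mzb1 without these or B24 (up to 0.149).

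Some of the steepest falls were found with combined therapy and not with vehicle. Plk2, a stress- and p53-responsive kinase of centriole duplication (ENSMUSG00000021701, chromosome 13, 110395046 to 110400844), was at 0.730, 0.415 and 0.324 CPM with combined therapy, at 9.07, 10.1 and 8.28 CPM in WT and at 20.2, 15.2 and 9.16 CPM with vehicle. The combined libraries were far below all others. It differed by -4.24 ± 0.52 from WT (edgeR adjusted p = 0.00128) and by -4.93 from vehicle (edgeR adjusted p = 0.000202), whereas AG221 and ruxolitinib alone stood at -0.36 and 0.25 against WT. No other of the 23 p53 targets tested was called.

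The inducible chaperone genes Hspa1a and Hspa1b, neighbors on chromosome 17 (34969190 to 34972156 and 34956436 to 34959238), were nearly silent with combined therapy. Hspa1a had 3 counts over the combined libraries and 403 over the WT libraries, a ratio of 108 (95% counting interval 36.6 to 524, edgeR adjusted p = 0.00796). Hspa1b was at 0.261, 0.449 and 0.555 CPM against 20.4, 33.6 and 15.9 CPM in WT and 16.7, 1.47 and 7.74 CPM with vehicle (-5.76 ± 1.07, edgeR adjusted p = 0.0161). Combined therapy was under every WT and vehicle library for both. The copies are nearly identical, so that their split is uncertain, and no other of the 21 heat shock chaperones tested was called. Hmox1, heme oxygenase 1, was at 2.30, 1.56 and 1.85 CPM against 14.7, 6.91 and 15.4 CPM in WT and was also low with vehicle (-2.70 and -2.31, edgeR adjusted p = 0.0245 and 0.00962). Hspa1a, Hspa1b and Hmox1 lost their calls without B25 (edgeR adjusted p = 0.0565, 0.0933 and 0.129), Hspa1b also without B30 (0.0513) and Hmox1 without B26, B28 or B31 (up to 0.0839).

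Further genes below WT included regulators of stem cells and signaling. Cyp26b1, which degrades retinoic acid, had 0.0522, 0.0691 and 0.0925 CPM with combined therapy against 2.83, 2.19 and 1.34 CPM in WT (-4.79 ± 0.68, edgeR adjusted p = 0.00344), and all 3 combined values are at or under the level of 3 counts. Tns2, a tensin of focal adhesions, was at 0.626, 0.968 and 0.555 CPM against 9.87, 11.4 and 7.41 CPM (-3.71 ± 0.49, edgeR adjusted p = 0.00231), and vehicle was as low (0.355 to 1.72 CPM). Prdm16, a transcription factor of stem cell maintenance, fell by 1.38 (edgeR adjusted p = 0.0385). None of the 10 stem cell markers was called (median -0.52, with 3 called lower in vehicle), but 8 of the 10 fold changes with combined therapy were negative. Clock, a transcription factor of the circadian oscillator, fell by 0.91 on the log2 scale (edgeR adjusted p = 0.0234). Prdm16 and Clock lost their calls without B24, B25, B26, B28 or B30, and Prdm16 without B31 (edgeR adjusted p up to 0.127 and 0.121), whereas Irf4, Plk2, Cyp26b1 and Tns2 held.

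**Figure D3:**
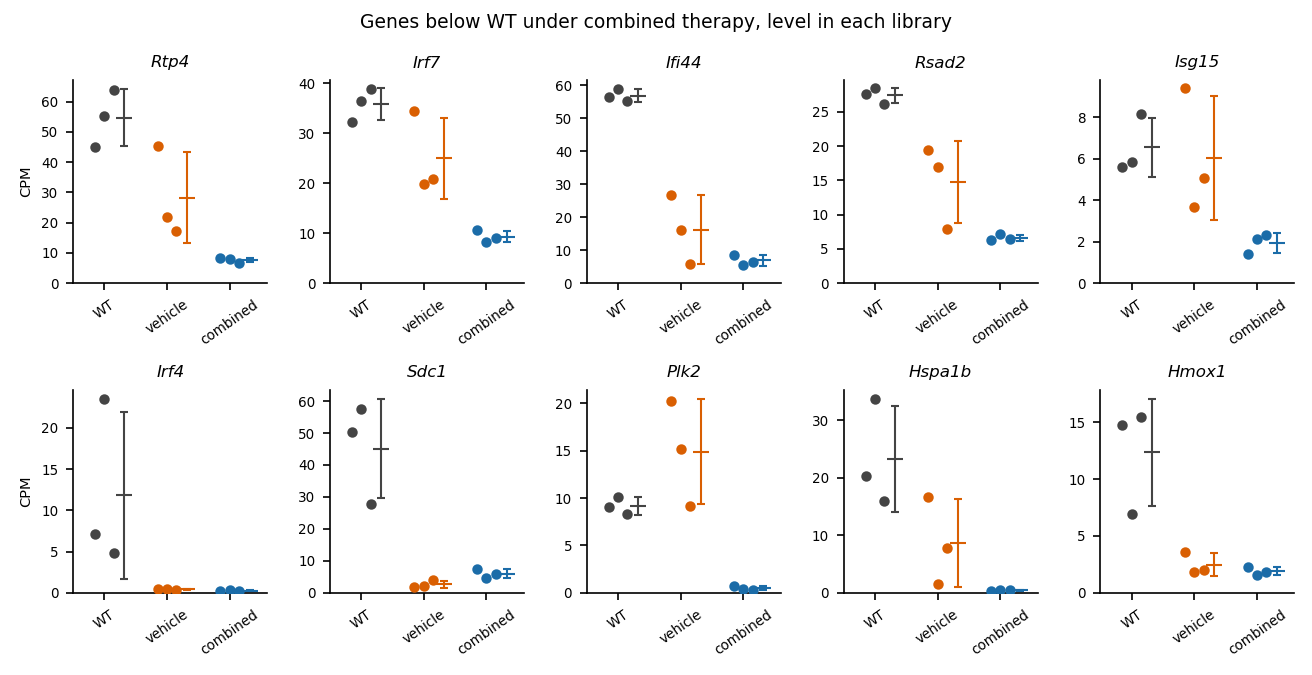
Level per library in CPM, on linear axes from 0, of genes called lower with combined therapy than in WT, with each point a library of the WT, vehicle or combined group and bars for the mean and SD of each group. For Rtp4, Irf7 and Plk2 the combined libraries lie under all WT and vehicle libraries.

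The genes taken past WT were few, and all lay close to the threshold. Mark3, a kinase of microtubule and cell polarity regulation (chromosome 12, 111574523 to 111656221), was at 28.8, 27.8 and 20.7 CPM with combined therapy, at 11.4, 14.3 and 13.4 CPM in WT and at 9.59, 6.32 and 9.24 CPM with vehicle. The 3 groups did not overlap. It rose by 0.98 ± 0.20 against WT (edgeR adjusted p = 0.0234), while vehicle differed from WT by -0.64 (edgeR adjusted p = 0.0275). Grk6, a kinase that desensitizes G protein-coupled receptors, was at 61.6, 62.5 and 44.9 CPM with combined therapy, 24.8, 29.0 and 27.8 CPM in WT and 15.98, 16.91 and 19.22 CPM with vehicle (1.05 ± 0.22, edgeR adjusted p = 0.026). Trim28, the corepressor of zinc finger proteins that silences retroelements, was at 169, 182 and 133 CPM, 72.8, 90.4 and 80.6 CPM, and 40.0, 39.5 and 55.5 CPM in the same order (0.99 ± 0.22, edgeR adjusted p = 0.0352). In each of these genes combined therapy stood highest, WT between and vehicle lowest.

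The remaining genes past WT and higher were Cnot6, a deadenylase of the CCR4-NOT complex (0.82), Fam91a1 (0.88), Klhl5 (0.75), N4bp1 (0.60) and Mtch1, an insertase of the outer mitochondrial membrane (1.43), with edgeR adjusted p from 0.031 to 0.0469. For Mtch1 the lowest combined library, B26 at 16.8 CPM, lay under the highest WT library at 18.2 CPM. B26 was the lowest combined library in all 8 genes. Their median against WT was 0.93 with combined therapy, -0.66 with vehicle, 0.11 with AG221 and -0.82 with ruxolitinib. The 3 genes past WT and lower were long noncoding RNAs or predicted genes. Gdap10 was at 14.7, 12.4 and 17.02 CPM with combined therapy, at 25.9, 26.7 and 23.7 CPM in WT and at 91.7, 71.1 and 64.4 CPM with vehicle (-0.79 ± 0.19, edgeR adjusted p = 0.0422). Gm26809 and Gm26887 lay below WT by 0.80 and 1.50 and above it with vehicle by 1.77 and 2.36 on the log2 scale (edgeR adjusted p against WT with combined therapy = 0.044 and 0.0425), and 28.7% of the exon sequence of Gm26809 lies under a gene on the other strand. No gene was past WT without B25, B28, B30 or B31, and 57 were without B26, so that membership of this class rested on single libraries.

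**Figure D4:**
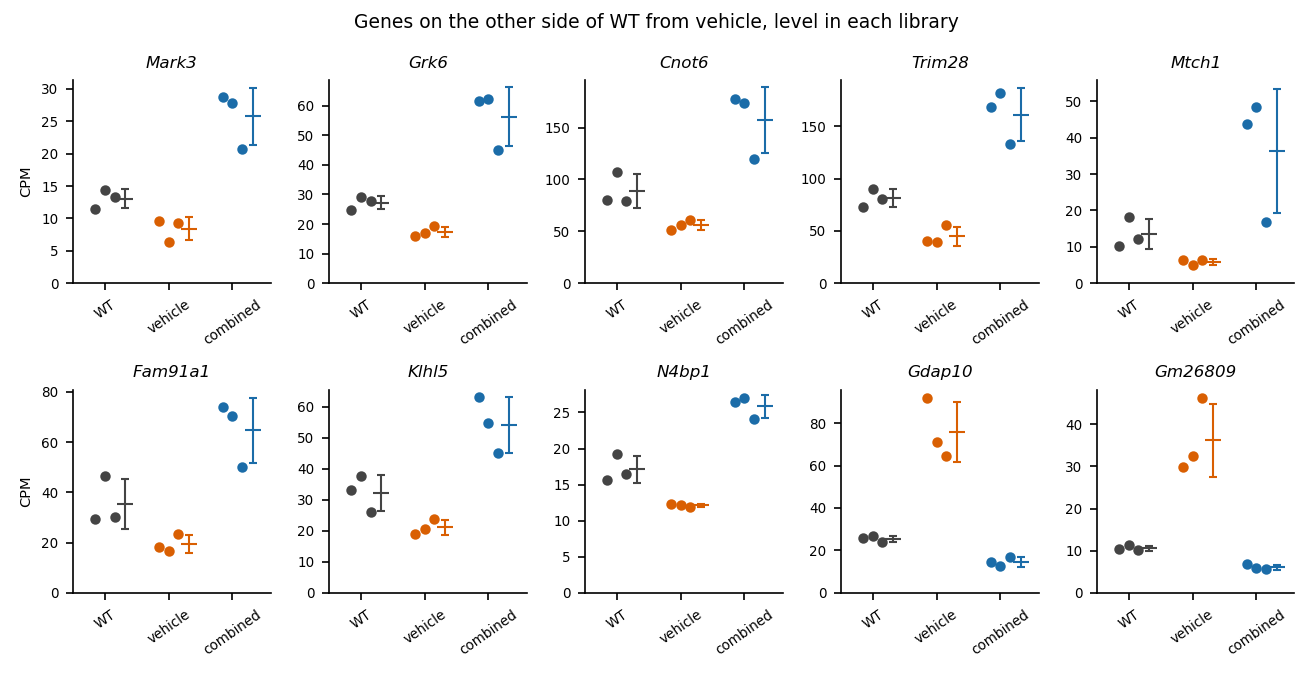
Level per library in CPM, on linear axes from 0, of genes taken past WT, with each point a library of the WT, vehicle or combined group and bars for the mean and SD of each group. For Mark3 and Grk6 the combined libraries are highest and vehicle lowest, and for Gdap10 the order is reversed.

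Several gene lists held no called gene with combined therapy, where 1.6% of all tested genes were called higher, against 15.3% with vehicle. None of 39 immediate early genes was called against WT (median 0.04), whereas 21 were called higher with vehicle (median 1.95). Their summed level was 1372 to 2183 CPM with combined therapy, 1566 to 1870 CPM in WT and 9025 to 18250 CPM with vehicle. It was 5639 to 7445 CPM with AG221 and 5816 to 11450 CPM with ruxolitinib (medians against WT 0.70 and 1.73). Every library of letter A thus lay above every library of letter B, and letter and treatment cannot be told apart for this list. None of 49 genes of ribosome biogenesis was called with combined therapy and 36 were called higher with vehicle, but the median of 0.31 remained above that of all genes. No erythroid marker of 11 was called, against 5 with vehicle (medians 0.55 and 1.72), yet 10 of the 11 fold changes were positive and the summed level of 2261 to 3912 CPM lay above WT (1699 to 1857 CPM) and overlapped vehicle (2110 to 3317 CPM). None of 19 JAK/STAT targets was called, against 4 higher and 1 lower with vehicle, at medians of 0.24 and 0.22. The summed level of these targets, 2635 to 2887 CPM, lay above WT (2033 to 2316 CPM) and overlapped vehicle (2701 to 3066 CPM), while 8 of the 19 fold changes were negative. A gene that was not called is not shown to equal WT. Jak2 itself was at 47.3, 52.9 and 40.7 CPM with combined therapy and at 32.3, 38.4 and 27.1 CPM in WT (0.53 ± 0.16, edgeR adjusted p = 0.0793). Idh2 was not called either (0.35 ± 0.59, edgeR adjusted p = 0.742). Its libraries did not overlap, at 499, 465 and 568 CPM with combined therapy and 384, 376 and 440 CPM in WT. The SE comes from the shared fit of all 15 libraries. In that fit Idh2 ran from 55.1 to 335 CPM with AG221, from 124 to 480 CPM with ruxolitinib and from 212.5 to 461 CPM with vehicle.

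**Figure D5:**
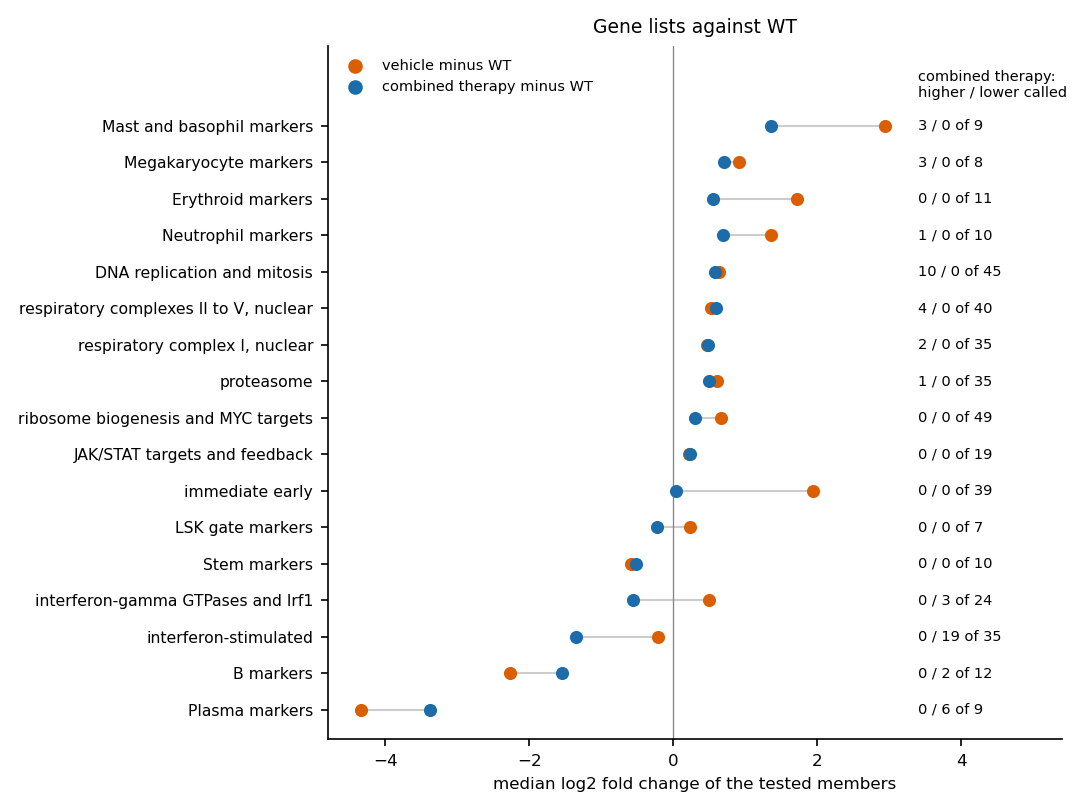
Median log2 fold change against WT of gene lists with vehicle and with combined therapy, in log2 units, with the counts of tested members called higher and lower with combined therapy printed at the right. Interferon-stimulated genes lie at -1.35 with combined therapy and -0.21 with vehicle, and immediate early genes at 0.04 and 1.95.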

How the data were processed

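RNA sequencing was done on sorted LSK cells in 15 libraries, and groups were taken from the sample labels. The authors deposited raw read counts per gene, made from paired-end reads of SMARTer-amplified RNA with STAR 2.5.1a against mm10 (GRCm38) and an Ensembl gene model, with versions as given in the submitters' processing notes. They also deposited counts normalized with DESeq2 1.6.3, which were not used. The strand setting is not given in the sources used here.

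Symbols and coordinates came from GENCODE M21 (GRCm38), which matched 44585 of 45232 IDs. Of 37904 genes with at least 1 count, 17834 passed filterByExpr by group, and 601 on X, 7 on Y and 83 without a chromosome were left out. Counts were normalized by TMM, and all 15 libraries entered 1 quasi-likelihood fit of 5 groups without covariates (edgeR 4.0.16, R 4.3.3). Adjusted p-values (Benjamini-Hochberg) cover the 17143 genes left. CPM are TMM-scaled, and the SE is the log2 fold change divided by the square root of F.

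Replicates differed by more than sampling noise and each was counted. The genes named are the 10 with the smallest p in each direction among called genes without overlap, the 6 with the smallest p in each of 4 classes (higher or lower, not brought to WT or past it), members of gene lists, and Jak2, Idh2, Gata1 and Gata2, passing over predicted genes, pseudogenes and antigen receptor segments. Alox5, Siglecf, Ccl2, F2r, F2rl2, Gp1ba, Gp5, P2ry1, E2f8, Klhl5, N4bp1, Gm26809, Gm26887 and the genes beside the threshold were named after their values were seen. Members and lists were chosen with earlier results of these data known. The fit was tested on simulated data. Alternatives were DESeq2 1.42.0, other scalings (RLE, upper quartile, GC content offsets), filters, thresholds, gene universes, fewer libraries in the fit, a prior count of 0.5 in place of 2, and leaving out each combined, WT or vehicle library. AG221 and ruxolitinib libraries were not left out singly.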

Additional observations from a re-analysis of the deposited data

How the results depend on the processing

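Of 540 genes called (274 higher, 266 lower; 404 not brought to WT, 11 past WT, 125 with combined therapy only), DESeq2 called 1838 (1004 higher, 834 lower; 1232, 96 and 510 in these classes). Upper quartile factors gave 91 higher and 474 lower, with 357 of 565 called genes shared with the TMM calls, and GC content offsets gave 431 higher. With every gene of at least 1 count 820 were called (511 lower, 30 past WT and 190 with combined therapy only). Requiring 10 counts in every combined and WT library left 202 (75 higher, 127 lower; 143, 3 and 56), a threshold of 0.01 left 69 (31 higher, 38 lower; 48, 0 and 21), and a 2-fold minimum left 121 higher, 3 past WT and 76 with combined therapy only. A fit of the 6 combined and WT libraries called 1653 (594 higher, 1059 lower), and a fit of the 9 combined, WT and vehicle libraries gave 177 higher and 4 past WT. Leaving out 1 combined, WT or vehicle library gave 76 to 742 calls (40 to 335 higher and 36 to 407 lower, and 68 to 427, 0 to 57 and 8 to 302 by class). The lowest of these, apart from the 0 past WT also reached without B28, B30 or B31, were without B25, and the highest without vehicle library A4, except that 57 genes past WT came without B26. Without WT library B28 or B30, 129 and 121 genes were called. The cause of these changes was not tested. Of 78 called genes followed through 11 alternatives with a test, 22 kept their call in all, 54 lost it without B25, 49 without B28 and 48 without B30, and none changed direction. Keeping X and Y, keeping unplaced genes, leaving out antigen receptor segments and RLE factors left every class count within 1.5 times that reported. No paired analysis was possible because combined, WT and vehicle libraries share no replicate number. Depth limits the genes below WT most, where 12 had no count in any combined library.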

Other observations

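Several called genes lay side by side on the chromosome, counted as runs with gaps of at most 0.5 Mb between called genes. On chromosome 5, 104935057 to 105490074 (GRCm38), 6 of 8 tested genes were called, 4 of them lower (among them Gbp6, Gbp9 and Gbp11) and 2 higher. On chromosome 1, 173221284 to 173766943, 5 of 11 were called, with Fcer1a among the 2 higher and members of the interferon-activable Ifi200 family (Ifi204, Ifi206 and Ifi213) lower. On chromosome 1, 174365122 to 174392055, all 3 tested genes were called higher, the olfactory receptor genes Olfr417 and Olfr248 and a pseudogene between them. Olfr417 was at 3.86, 3.32 and 2.40 CPM with combined therapy and at 0.689, 0.640 and 0.537 CPM in WT (2.35 ± 0.32, edgeR adjusted p = 0.00266), and vehicle, AG221 and ruxolitinib also stood above WT by 1.74, 1.27 and 1.84. On chromosome 4, 147136278 to 147585198, 4 of 7 were called, all lower, among them the zinc finger genes Zfp985 and Zfp988. These families hold close paralogs, and these runs were chosen after their values were seen.

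Among the 2628 genes called higher with vehicle than in WT, the median log2 difference from WT was 0.67 with vehicle, 0.37 with combined therapy, 0.91 with AG221 and 0.68 with ruxolitinib. Among the 3053 called lower, these medians were -1.97 with vehicle, -0.94 with combined therapy, -1.995 with AG221 and -1.65 with ruxolitinib. The genes were chosen on the vehicle values, and all these differences use the same WT libraries.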
